A study of Mus musculus with 9 samples.

Results

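The GIMAP family (GTPases of the immunity-associated proteins) was followed through its 8 genes named in the count table, Gimap1, Gimap3, Gimap4, Gimap5, Gimap6, Gimap7, Gimap8 and Gimap9, out of 55011 genes listed. They were taken by symbol, and all 8 had enough counts to be tested among the 10235 genes that were. GIMAP proteins are GTPases of lymphocytes, and some sit on intracellular membranes through their carboxyl ends. They are known for keeping resting T and B cells alive: rats and mice that lack functional Gimap5 lose most of their peripheral T cells. Their genes lie next to each other in a single cluster, and their transcripts are a feature of mature T cells.

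RNA was sequenced from CD8 T cells, the cytotoxic lymphocytes, taken as naive cells from the spleen of wild-type (WT) mice. Antibodies to CD3 and CD28, bound to the plate at 4 µg/mL, stimulated them for 6 h; these engage the T cell receptor complex and its costimulatory receptor. Control cells received no compound, and treated cells received, when stimulation began, either D-2HG or L-2HG at 20 mM, with 3 libraries in each of the 3 groups. The compounds are enantiomers of hydroxyglutarate, of which tumours with mutant isocitrate dehydrogenase make the D form, and the study's question was how that form affects CD8 T cells. The animals' age is not in the labels, no unstimulated cells were among the samples, and the labels do not say whether replicates were separate animals or cultures, so that p-values measure the spread between these libraries, which may be technical.

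Total counts ran from 562627 in L-2HG replicate 2 to 5731885 in control replicate 3. The 6 CD8 T cell markers, Cd8a, Cd8b1, Cd3d, Cd3e, Cd3g and Trac, were all above the count filter. Their summed level was 2917 to 4805 CPM (counts relative to library totals scaled by TMM) in control, 2419 to 2785 with D-2HG and 2189 to 3193 with L-2HG. The share of counts in Gm10800 and Gm10801, which carry satellite repeat sequence, was 0.910% to 5.35% in control, with the highest value in control replicate 2. It was 3.79% to 17.0% with D-2HG and 6.71% to 24.4% with L-2HG, so that this measure moved with the groups, and its part in the results was not tested beyond the fit that holds it as a covariate. Reads in 1874 of 1973 sensory receptor genes, taken as silent in T cells, were used to predict a background from genomic DNA. The receptor genes with the most reads per exon base in these libraries were left out, which lowers the prediction. The origin of these reads was not tested. The prediction was 0.0156% to 1.93% of the counts of single Gimap genes in control. The predicted share was 0.0971% to 3.65% with D-2HG and 0.0943% to 7.58% with L-2HG, with the upper ends in Gimap7 and Gimap8, the Gimap genes with the fewest counts.

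The family occupied 123.6 kb of chromosome 6 (mm10, chr6:48647234-48770851), with Gimap8 at one end and Gimap3 at the other. Gimap8 (identifier ENSMUSG00000064262, chr6:48647234-48660875, plus strand) was followed by Gimap9 (ENSMUSG00000051124, chr6:48676129-48679114), Gimap4 (ENSMUSG00000054435, chr6:48684549-48692060) and, on the minus strand, Gimap6 (ENSMUSG00000047867, chr6:48701582-48708225). Then came Gimap7 (ENSMUSG00000043931, chr6:48718621-48724636), Gimap1 (ENSMUSG00000090019, chr6:48739054-48743795), Gimap5 (ENSMUSG00000043505, chr6:48746197-48754210) and, on the minus strand, Gimap3 (ENSMUSG00000039264, chr6:48764464-48770851). The longest annotated coding sequence was 873 to 984 bases in 7 members and 2064 bases in Gimap8, whose protein carries several GTPase domains in a row. The coding sequences of Gimap3 and Gimap5 were 90.4% identical over 895 aligned bases. The other pairs among the 7 shorter members shared 55.8% to 67.9% of their aligned bases, with gaps left out. The highest of these, for Gimap3 and Gimap6, came from 666 aligned bases and was 49.4% of the longer sequence.

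The likeness of Gimap3 and Gimap5 and the crowding of the cluster bear on how reads could be assigned. Of all 50-base stretches of annotated transcripts, 7.5% of those in Gimap3 and 4.5% of those in Gimap5 also occurred in another Gimap gene, so that part of the reads of this pair cannot be told apart. Of the exon bases of Gimap1, 36.0% overlapped exons of other genes, mostly of Gimap1os on the opposite strand. The sources used here do not say whether counting used strand, and without strand, reads of Gimap1 and Gimap1os in these bases cannot be separated. Gm28053, a predicted gene that reads through the cluster, covered 198 of the 3073 exon bases of Gimap1. It also covered 3.5% of the exon bases of Gimap7 and 3.7% of those of Gimap5. All 3 genes lie on the same strand as Gm28053, so strand would not separate their reads there. The exons of Gimap3, Gimap4, Gimap6, Gimap8 and Gimap9 overlapped those of no other gene.

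The bases before the start of transcription are shown for the 3 members that fell with D-2HG and for Gimap8, the member that was higher (RefSeq, GRCm38.p6). The windows are chr6:48738797-48739046 for Gimap1, chr6:48684328-48684548 for Gimap4, chr6:48745947-48746196 for Gimap5 and chr6:48646984-48647233 for Gimap8, all on the plus strand and ending before the first annotated exon base of the gene; the window of Gimap1 lies inside Gimap1os. Capitals mark every match, on either strand, to GGAA (the core bound by ETS factors), TGTGGT (RUNX factors), CACCC (KLF factors), TGTTTAC (forkhead factors), TTCNNNGAA (STAT factors) or the interferon response motif, which is GAAA, any NN and GAAA again.
Gimap1: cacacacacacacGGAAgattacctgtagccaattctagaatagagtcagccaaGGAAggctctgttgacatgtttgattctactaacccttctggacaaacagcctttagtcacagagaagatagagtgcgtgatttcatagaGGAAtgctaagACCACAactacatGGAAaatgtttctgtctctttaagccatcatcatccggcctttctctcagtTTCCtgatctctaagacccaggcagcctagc
Gimap4: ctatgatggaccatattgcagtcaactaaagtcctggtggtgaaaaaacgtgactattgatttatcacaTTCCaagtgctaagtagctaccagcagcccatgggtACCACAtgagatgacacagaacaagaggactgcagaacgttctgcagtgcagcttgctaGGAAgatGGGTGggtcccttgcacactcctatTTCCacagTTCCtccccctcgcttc
Gimap5: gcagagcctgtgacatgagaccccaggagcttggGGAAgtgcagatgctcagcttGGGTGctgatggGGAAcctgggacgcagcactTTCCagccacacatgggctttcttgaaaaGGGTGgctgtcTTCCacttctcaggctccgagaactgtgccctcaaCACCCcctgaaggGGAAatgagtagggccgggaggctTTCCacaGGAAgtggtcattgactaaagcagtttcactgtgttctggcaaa
Gimap8: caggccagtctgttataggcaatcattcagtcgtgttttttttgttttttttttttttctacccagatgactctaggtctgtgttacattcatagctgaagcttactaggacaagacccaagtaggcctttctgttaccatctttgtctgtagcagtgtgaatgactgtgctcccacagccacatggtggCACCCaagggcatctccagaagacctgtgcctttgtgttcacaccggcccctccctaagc
Over windows of 250 bases, TGTGGT was found in 3 of 9 promoters of the family, those of Gimap1, Gimap4 and Gimap7, and in 14.0% of all 32851 promoters. GGAA was in 8 of the 9 and in 93.4% of all promoters, and the window without it was the one shown for Gimap8. CACCC was in 6 of 9, against 52.0% of all promoters. TTCNNNGAA was in 2 of 9, against 7.02%, one of them the window of a second annotated start of Gimap8. TGTTTAC was in 1, the promoter of Gimap3, against 3.17%, and the interferon response motif was in none of the 9, against 2.98%. Motif matches are descriptions of these windows and overlap where a GGAA lies inside a longer motif.

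In stimulated control cells the family ranged widely in level. Per kilobase of exon, Gimap4 was highest at 232 ± 52.9 CPM per kb, followed by Gimap3 at 159.8 ± 12.5 and Gimap6 at 154 ± 29.4 (SD, n = 3). Gimap1 stood at 74.2 ± 16.5, Gimap5 at 58.1 ± 10.4 and Gimap9 at 52.6 ± 17.0 CPM per kb. Gimap7 and Gimap8 were lowest, at 10.3 ± 2.56 and 7.81 ± 1.74 CPM per kb. The range over libraries of Gimap4 lay above that of Gimap3, that of Gimap6 above that of Gimap1, and that of Gimap9 above that of Gimap7; the other neighbours in this order overlapped. With D-2HG the order was Gimap4, Gimap6, Gimap3, Gimap1, Gimap9, Gimap5, Gimap8 and Gimap7, and Gimap8 lay above Gimap7 in 3 of 3 libraries. With L-2HG the order was Gimap4, Gimap3, Gimap6, Gimap1, Gimap9, Gimap5, Gimap7 and Gimap8. The first 3 places went to Gimap3, Gimap4 and Gimap6 in every group, and among them neighbours in the order overlapped with D-2HG and with L-2HG.

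**Figure D1:**
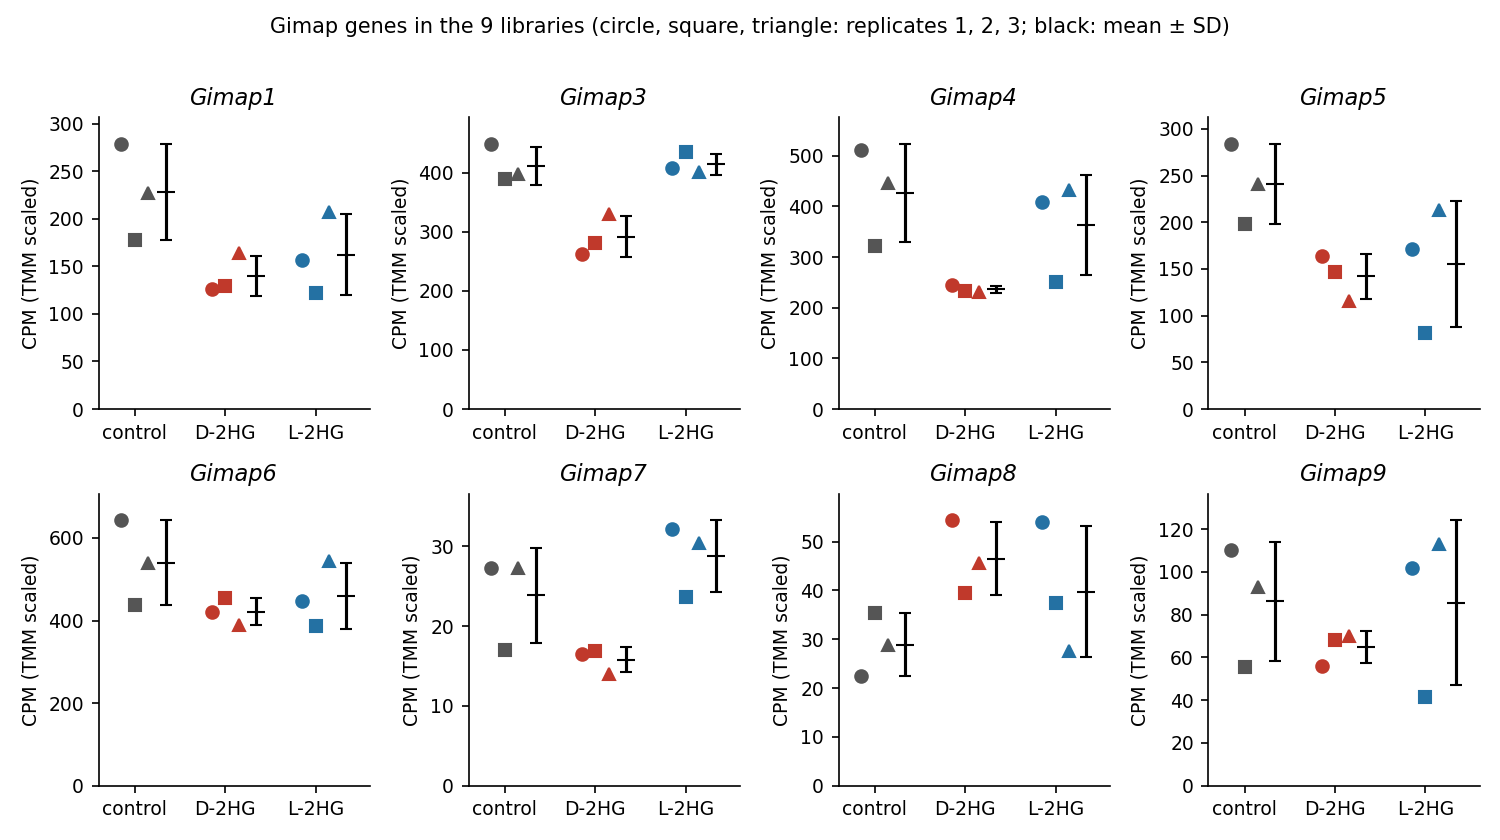
Level of each Gimap gene in CPM (vertical axis, TMM scaled, from 0) in the control, D-2HG and L-2HG libraries; symbols are replicates and black bars are the mean ± SD of 3 libraries. With D-2HG the libraries of Gimap1, Gimap3, Gimap4, Gimap5 and Gimap7 lie below all controls and those of Gimap8 above them, while L-2HG libraries overlap the controls for every gene.

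The first comparison set D-2HG against control. Most of the family was lower: estimates were below control for 7 of the 8 genes, and Gimap1, Gimap4 and Gimap5 fell (edgeR's quasi-likelihood test; p adjusted by Benjamini-Hochberg over all genes tested, threshold 0.05). None rose, and Gimap8 was the member with an estimate above control. Of all genes tested, 10.5% fell and 11.8% rose with D-2HG. The median log2 fold change was -0.56 over the family and 0.04 over all genes tested. The CPM ranges of 3 libraries against 3 did not overlap for 5 members that were lower and for Gimap8, which was higher; over all genes tested this held for 19.3% in the lower and 20.7% in the higher direction. In these bulk libraries fewer cells carrying a transcript and less of it per cell cannot be told apart.

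Gimap4, which in mice speeds the death of T cells once apoptosis has begun, changed most among the members that fell. Its level was 512, 321 and 447 CPM in control replicates 1, 2 and 3, and 244, 233 and 231 CPM in the D-2HG libraries. The D-2HG libraries were close together and below the lowest control, which was replicate 2. The log2 fold change was -0.86 (95% interval -1.32 to -0.40; edgeR adjusted p = 0.0140), or 0.552 of the control level.

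Gimap5, whose protein sits on lysosomes and is needed for the survival of peripheral T cells, stood at 284, 198 and 241 CPM in control. With D-2HG it stood at 163, 147 and 116 CPM, so that the groups were separate but the gap between control replicate 2 and D-2HG replicate 1 was small. Its log2 fold change was -0.76 (-1.29 to -0.23; edgeR adjusted p = 0.0387). Gimap1, which mice need to form and keep mature T and B cells, stood at 279, 178 and 227 CPM in control. It stood at 127, 129 and 164 CPM with D-2HG, again below all controls, with a log2 fold change of -0.71 (-1.17 to -0.25; edgeR adjusted p = 0.0291).

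Gimap3, the close relative of Gimap5, which has been tied in mice to how mitochondrial DNA variants are sorted in leukocytes, missed the threshold narrowly. It stood at 449, 389 and 397 CPM in control and at 263, 281 and 330 CPM with D-2HG. All D-2HG libraries were below all controls, and the log2 difference was -0.50 (-0.88 to -0.12; edgeR adjusted p = 0.0514). Gimap7, whose human counterpart activates another GIMAP GTPase by pairing with it, stood at 27.2, 17.0 and 27.3 CPM in control against 16.5, 16.9 and 14.0 CPM with D-2HG. Its D-2HG libraries reached almost to control replicate 2, and the log2 difference was -0.61 (-1.14 to -0.08; edgeR adjusted p = 0.0844).

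Gimap6 and Gimap9 overlapped between the groups. Gimap6, whose human protein binds the autophagy protein GABARAPL2, stood at 642, 437 and 540 CPM in control and at 420, 455 and 389 CPM with D-2HG. D-2HG replicate 2 was above control replicate 2, and the log2 difference was -0.36 (-0.77 to 0.06; edgeR adjusted p = 0.190). Gimap9 stood at 110.1, 55.7 and 93.2 CPM in control and at 56.1, 68.3 and 70.0 CPM with D-2HG. Control replicate 2 was the lowest of these 6 libraries, and the log2 difference was -0.43 (-1.02 to 0.16; edgeR adjusted p = 0.267).

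Gimap8 stood apart in direction. It had 22.5, 35.4 and 28.8 CPM in control and 54.4, 39.5 and 45.6 CPM with D-2HG. Every D-2HG library was above every control, and the log2 difference of 0.70 (0.16 to 1.24) was just outside the threshold (edgeR adjusted p = 0.0550). The counts behind these values were 73 to 159 in control and 101 to 173 with D-2HG. The predicted genomic background was 0.486% to 1.47% of them in control and 1.18% to 1.78% with D-2HG, and with that background subtracted the log2 difference was 0.76.

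**Figure D2:**
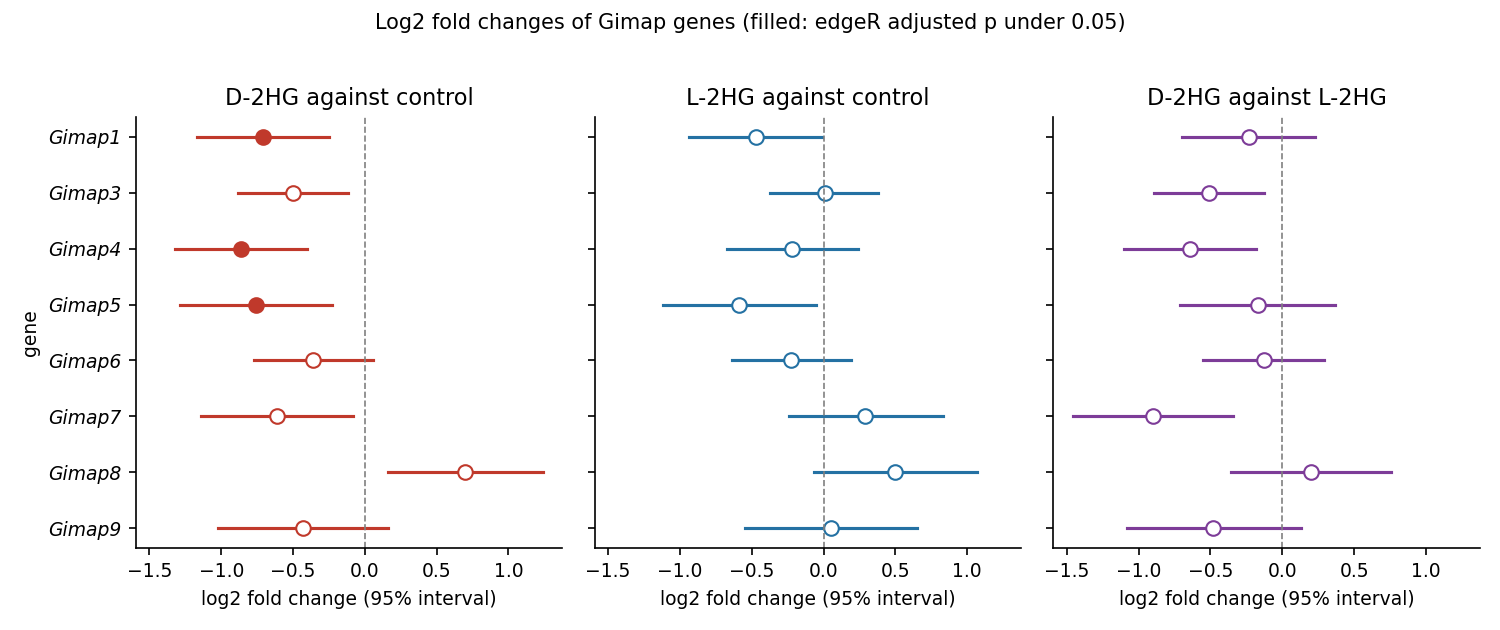
Log2 fold change of each Gimap gene with its 95% interval (horizontal axis) in panels for D-2HG versus control, L-2HG versus control and between the enantiomers; filled points have an edgeR adjusted p under 0.05. Filled points are Gimap1, Gimap4 and Gimap5 for D-2HG against control, and no member in the other comparisons.

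The 3 calls with D-2HG depended on single libraries. Leaving out control replicate 1 or control replicate 3, or D-2HG replicate 1, 2 or 3, left none of the 8 genes past the threshold, with adjusted p up to 0.145 for Gimap1, 0.0734 for Gimap4 and 0.160 for Gimap5. Without L-2HG replicate 1, Gimap1 and Gimap4 passed and Gimap5 did not. The estimates moved less: over these and the other leave-one-out fits they ran from -1.04 to -0.71 for Gimap4, -0.90 to -0.63 for Gimap5 and -0.87 to -0.54 for Gimap1. Control replicate 2, an untreated library, differed from the mean of control replicates 1 and 3 in the direction of D-2HG for all 8 genes, with a median of -0.46 on the log2 scale and 0.46 for Gimap8. Without it, all 8 passed, 7 lower and Gimap8 higher. That fit called 4257 of 10906 genes tested. Over all genes, the leave-one-out fits that left no Gimap gene past the threshold called 384 to 1058. With the log2 satellite share as a covariate none passed, with estimates of -0.43, -0.25 and -0.52 for Gimap4, Gimap5 and Gimap1, and the count over all genes went from 2278 to 96.

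**Figure D3:**
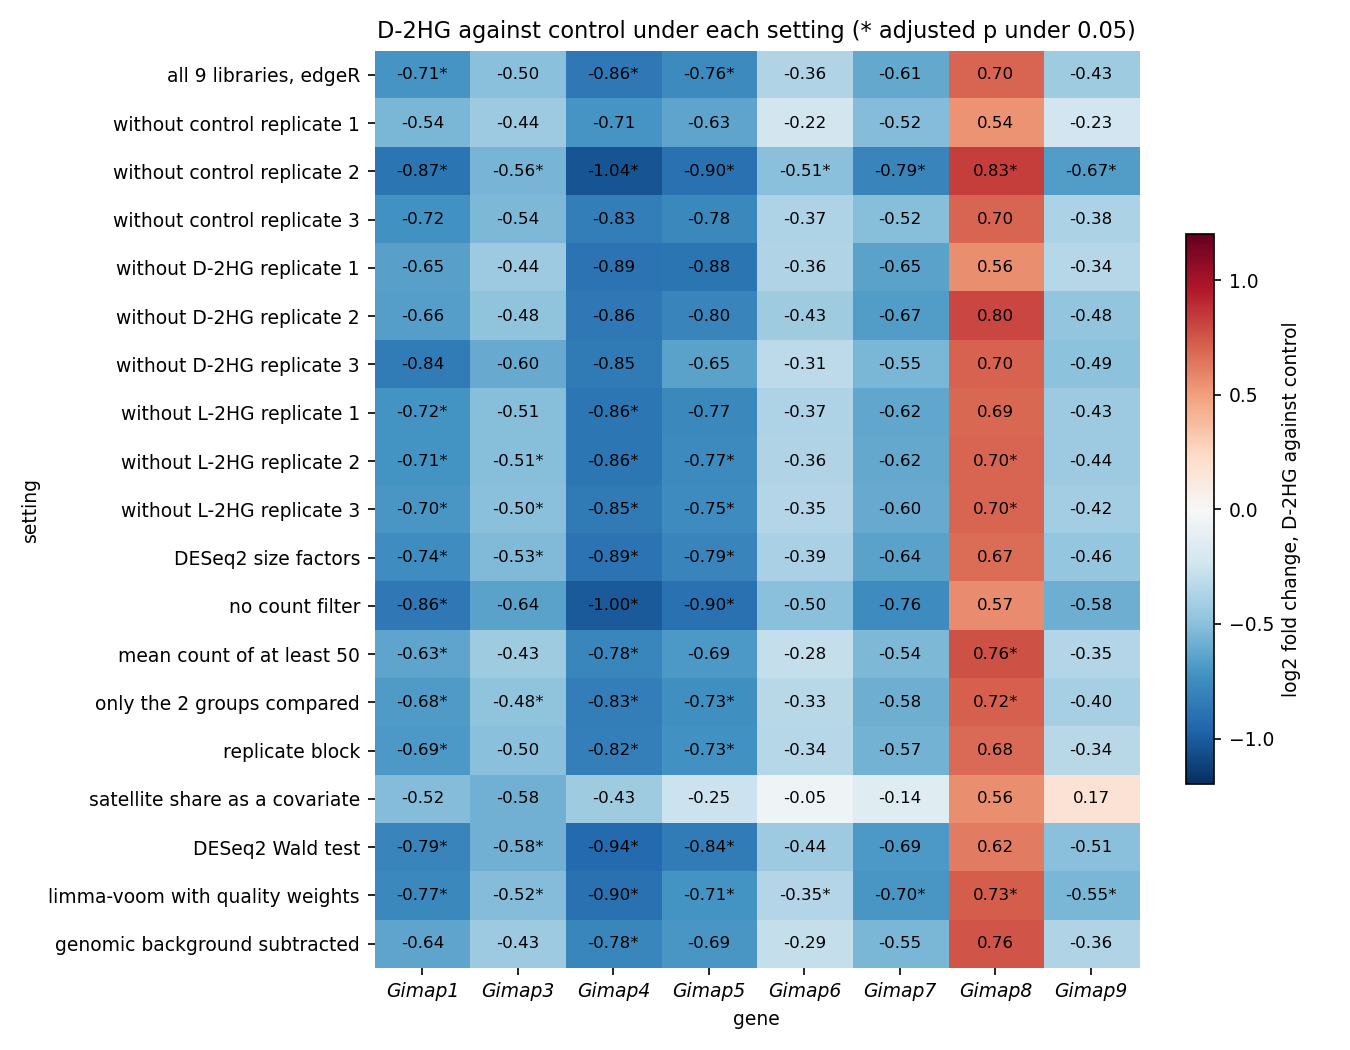
Log2 fold change of D-2HG against control (colour and number) for each Gimap gene (columns) in the fit of all 9 libraries and under each alternative setting (rows); a star marks an adjusted p under 0.05. Estimates for Gimap1, Gimap3, Gimap4, Gimap5, Gimap6 and Gimap7 are below 0 and those for Gimap8 above 0 in every row. Without control replicate 2 all 8 genes carry a star, in a fit that called 4257 of 10906 genes.

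The CD8 T cell markers were also lower with D-2HG: 4 of 6 fell (edgeR), where 10.5% of all genes tested did. The list's median log2 fold change was -0.68, beside the family's -0.56. Cd8b1 and Cd3e each had a log2 fold change of -0.89, Cd3g of -0.73 and Trac of -0.63, while Cd8a (-0.23) and Cd3d (-0.38) did not pass. With L-2HG, Trac fell, where 8.3% of all genes tested did, and the list's median was -0.33. The part in the Gimap result of whatever moved these markers was not tested. Markers of other cells were read beside these values. Of the B cell markers, Ms4a1, Cd79a, Ebf1 and Pax5 had at most 9 counts in any library. Ighm, the heavy chain of immunoglobulin M, was at 164 to 310.2 CPM in control, 127 with D-2HG and 124 to 188 with L-2HG, so that the summed B cell markers were 176 to 318 CPM in control, 136 to 137 with D-2HG and 139 to 200.3 with L-2HG. B cells also express Gimap genes, and whether other cells had a part in the result was not tested. Of the 6 endothelial markers, Cdh5 had 0 to 2 counts per library and Tek, Tie1 and Kdr at most 6, Emcn at most 21, while Pecam1, which T cells also carry, had 17 to 188. The summed endothelial list was 18.9 to 51.9, 22.0 to 28.3 and 41.5 to 59.0 CPM in control, D-2HG and L-2HG. The lists of CD4 T cells, macrophages and monocytes, and NK cells summed to at most 4.82 CPM in any library, and the erythroid and platelet list to at most 15.5 CPM. The list of mitochondrially encoded and nuclear RNAs summed to 19200.2 to 31712 CPM in control, 11204 to 15979 with D-2HG and 12392 to 15942 with L-2HG, sums carried by mitochondrially encoded genes. Of its 9 genes, 5 fell with either compound, where 10.5% of all genes tested fell with D-2HG and 8.3% with L-2HG. All 5 were mitochondrially encoded. Neat1 and Kcnq1ot1, both nuclear RNAs, went the other way and rose with either compound. Their log2 fold changes with D-2HG were 0.90 for Neat1 and 0.91 for Kcnq1ot1. Over all genes tested, 11.8% rose with D-2HG and 9.41% with L-2HG. The part of the listed RNAs in the result was not tested.

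The second comparison set L-2HG against control. No Gimap gene passed in either direction, where 17.7% of all genes tested did, 8.3% lower and 9.41% higher, a balance that turned towards lower with DESeq2 (edgeR; 2 members at an unadjusted p under 0.05, against 36.8% of all genes; 0 members by DESeq2 and 3 by limma-voom with quality weights, Gimap1 and Gimap5 lower and Gimap8 higher). Over all genes, DESeq2 called 2106 of 10282 with L-2HG and limma-voom 5169 of 10235. Estimates were below control for 4 genes and above for 4, with a median of -0.10 over the family and 0.05 over all genes tested. CPM ranges overlapped between the groups for all 8 genes, while over all genes tested 14.8% had ranges apart in the lower and 16.4% in the higher direction.

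Gimap5 stood at 172, 80.9 and 213 CPM in L-2HG replicates 1, 2 and 3, with a log2 difference of -0.59 from control (-1.12 to -0.05; edgeR adjusted p = 0.104). Gimap1 stood at 157, 122 and 207 CPM, with a log2 difference of -0.47 (-0.94 to -0.01; edgeR adjusted p = 0.128). In both genes replicate 3 lay within the control range and replicate 2, the shallowest library, was lowest. Gimap4 showed the same spread, at 409, 251 and 432 CPM, with a log2 difference of -0.22 (-0.67 to 0.24).

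Gimap3 was at 407, 434 and 401 CPM with L-2HG, inside the control range of 389 to 449 CPM, with a log2 difference of 0.01 (-0.37 to 0.38). The interval leaves room for changes of that size in either direction. Gimap6, at 448, 387 and 545 CPM, differed by -0.23 (-0.64 to 0.19), and Gimap9, at 102, 41.5 and 113 CPM, by 0.05 (-0.55 to 0.65). Gimap7 was at 32.2, 23.7 and 30.4 CPM, with a log2 difference of 0.29 (-0.24 to 0.83). Gimap8 was at 54.1, 37.5 and 27.6 CPM, so that replicates 1 and 2 were above all controls and replicate 3 was not, with a log2 difference of 0.50 (-0.07 to 1.07; edgeR adjusted p = 0.184). Replicate 2 held 12 counts of Gimap7, 19 of Gimap8 and 21 of Gimap9, and no member had more than 220 counts in it.

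The third comparison set the enantiomers against each other at the same dose and time. No Gimap gene passed, and 0.303% of all genes tested did, 0.254% lower and 0.0489% higher with D-2HG (edgeR; 3 members at an unadjusted p under 0.05, against 6.97% of all genes; 0 by DESeq2 and 3 by limma-voom with quality weights, Gimap3, Gimap4 and Gimap7, all lower with D-2HG). Over all genes, DESeq2 called 49 of 8609 between the enantiomers and limma-voom 158 of 10235. Gimap3, Gimap4 and Gimap7 also had CPM ranges below those of L-2HG in 3 libraries against 3. Such ranges were found for 8.13% of all genes tested, with 7.77% in the other direction. Gimap7 differed most, by -0.90 on the log2 scale (-1.46 to -0.34; edgeR adjusted p = 0.280), from 23.7 to 32.2 CPM with L-2HG and 14.0 to 16.9 CPM with D-2HG. Gimap4 differed by -0.64 (-1.10 to -0.18; edgeR adjusted p = 0.461) and Gimap3 by -0.51 (-0.89 to -0.13; edgeR adjusted p = 0.503). The differences were -0.17 (-0.71 to 0.37) for Gimap5, -0.23 (-0.70 to 0.23) for Gimap1, -0.13 (-0.55 to 0.29) for Gimap6, -0.48 (-1.08 to 0.13) for Gimap9 and 0.20 (-0.36 to 0.76) for Gimap8. These intervals do not show that the enantiomers act alike on these genes. The comparisons of each compound with control share the same 3 controls.

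The split of reads among the members does not depend on how libraries are scaled. Of all counts in the 8 genes, Gimap8 held 0.967%, 2.17% and 1.44% in control (exact Clopper-Pearson 95% intervals 0.783 to 1.18, 1.70 to 2.72 and 1.22 to 1.68, counting error only). It held 4.04%, 2.88% and 3.36% with D-2HG (3.45 to 4.71, 2.47 to 3.34 and 2.74 to 4.06) and 3.04%, 2.72% and 1.40% with L-2HG (2.57 to 3.56, 1.65 to 4.22 and 1.07 to 1.81). The D-2HG shares lay above all control shares, and L-2HG replicate 3 was at the control level.

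Gimap4 held 21.3 ± 1.45% of the family's counts in control, 17.4 ± 0.666% under D-2HG and 21.0 ± 2.51% under L-2HG (SD, n = 3). Its D-2HG libraries were below those of both other groups, but intervals overlapped. The share was 18.1% (16.9 to 19.4) in D-2HG replicate 1 and 18.2% (15.4 to 21.3) in L-2HG replicate 2. In control replicate 2 it was 19.7% (18.3 to 21.1). Gimap6, in contrast, made up 27.1 ± 0.439% in control, 31.0 ± 2.30% under D-2HG and 27.0 ± 1.59% under L-2HG. The gene whose CPM differed by less thus took a larger share, above both other groups in every D-2HG library. Here too intervals overlapped, with 28.6% (27.0 to 30.3) in D-2HG replicate 3 and 28.1% (24.8 to 31.6) in L-2HG replicate 2. Gimap7 held 1.19 ± 0.164%, 1.16 ± 0.116% and 1.69 ± 0.133% in control, D-2HG and L-2HG libraries, with the L-2HG libraries above the others. Its intervals overlapped as well, with 1.72% (0.891 to 2.98, from 12 counts) in L-2HG replicate 2 and 1.37% (1.16 to 1.60) in control replicate 3. Gimap5 held 12.1 ± 0.0994% in control and 8.78 ± 2.58% with L-2HG, and Gimap1 11.4 ± 0.546% and 9.40 ± 0.961%. L-2HG was below control in every library for both genes, while the intervals of L-2HG replicate 3 and control replicate 2 overlapped. The family as a whole summed to 2326, 1631 and 2001 CPM in control, 1344, 1370.5 and 1359 CPM with D-2HG and 1781, 1378 and 1969 CPM with L-2HG.

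**Figure D4:**
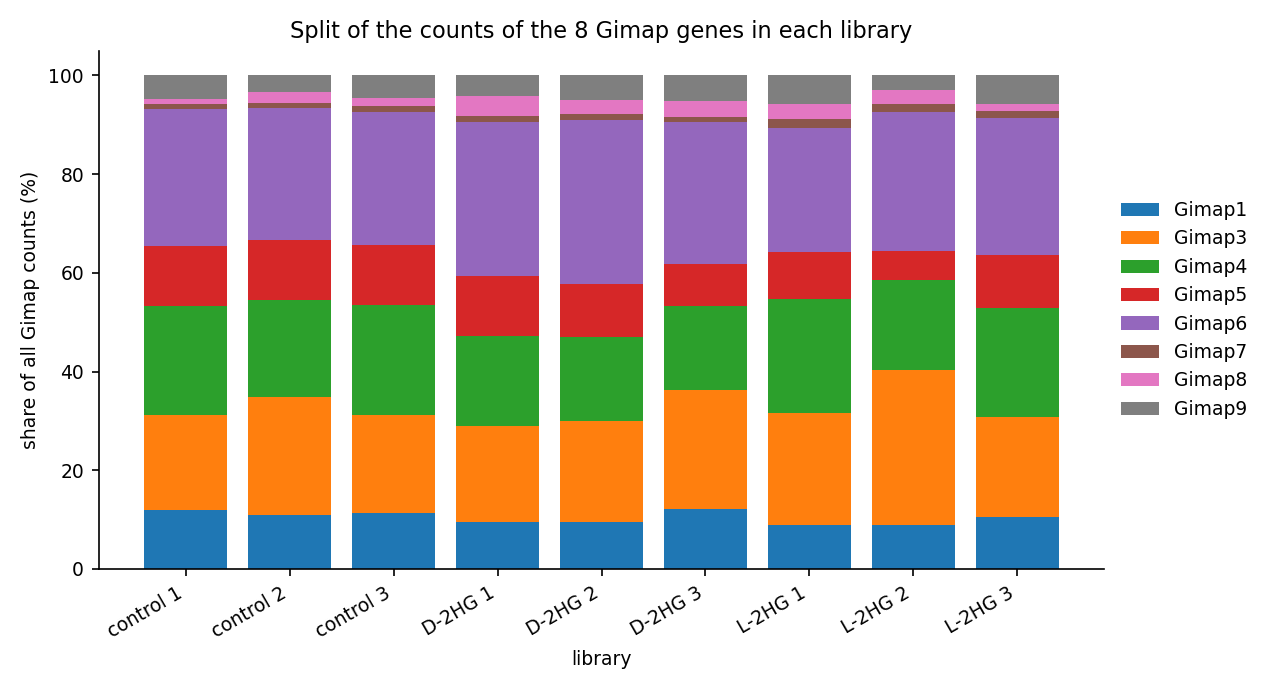
Share of each Gimap gene in the counts of all 8 Gimap genes (vertical axis, percent) for each of the 9 libraries; colours are genes and every bar adds to the whole. Gimap8 takes 2.88% to 4.04% in the D-2HG libraries and 0.967% to 2.17% in control, and Gimap4 is smaller with D-2HG.

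Genes around the cluster were read by position, within 250 kb of either end. Of 39 such neighbours 6 had enough counts to be tested. None of them passed with D-2HG (edgeR), where 22.3% of all genes tested did, and every 95% interval included 0. DESeq2 called 0 of them. Limma-voom with quality weights called 3, 1 higher and 2 lower, and 5615 of 10235 over all genes. Estimates were below 0 for 5 of the 6, with a median log2 difference of -0.53 beside the family's -0.56. Inside the cluster, Gimap1os, the antisense partner of Gimap1, was at 17.5, 11.1 and 15.7 CPM in control and 8.60, 10.0 and 12.2 CPM with D-2HG, a log2 difference of -0.56 (-1.18 to 0.05) beside the -0.71 of Gimap1. Gm28053 differed by -0.39 (-1.48 to 0.70). Outside the cluster, on the side of Gimap8, the differences with D-2HG were -0.62 (-1.53 to 0.29) for Zfp775, -0.49 (-1.42 to 0.43) for Repin1, -0.97 (-2.10 to 0.16) for Lrrc61 and 0.48 (-0.10 to 1.06) for Krba1. With D-2HG the predicted genomic background was 4.52% to 41.3% of the counts of Zfp775 and 12.9% to 27.4% of those of Repin1. It was 8.95% to 35.4% for Lrrc61 and 8.84% to 19.5% for Krba1. In control it was at most 5.6%, 7.69%, 14.1% and 12.8% in the same order. With L-2HG, Krba1 rose from 12.8 ± 2.69 to 29.4 ± 8.83 CPM (SD, n = 3; edgeR adjusted p = 0.0187), where 9.41% of all genes tested rose. Krba1 did not pass when control replicate 1, control replicate 3 or L-2HG replicate 2 was left out. The predicted genomic background was 5.25% to 12.8% of its counts in control and 9.53% to 30.9% with L-2HG, and it did not pass with that background subtracted.

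**Figure D5:**
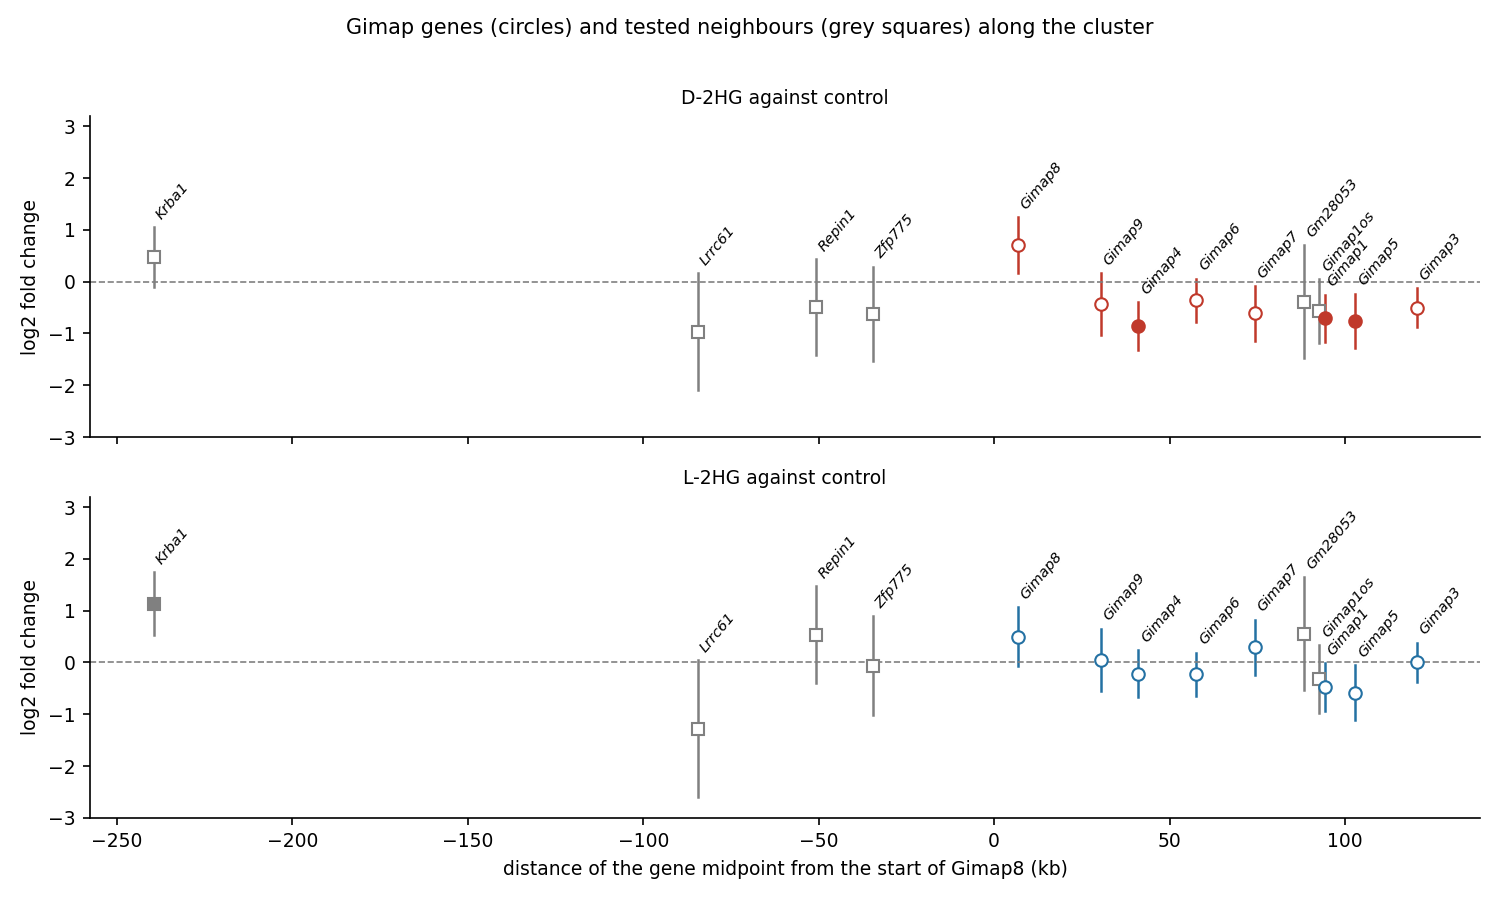
Log2 fold change with 95% interval (vertical axis) of Gimap genes (circles) and tested neighbours (grey squares) by distance of the gene midpoint from the start of Gimap8 in kb, for D-2HG and L-2HG against control; filled symbols have an edgeR adjusted p under 0.05. With D-2HG, Gimap8 at the left end of the cluster is above 0 and the other 7 members are below it.

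Across the 9 libraries, the members differed in how closely they followed the family's mean profile (mean of standardised log2 CPM). Pearson's r with it was 0.99 for Gimap4, 0.81 to 0.88 for Gimap1, Gimap5, Gimap6, Gimap7 and Gimap9, 0.64 for Gimap3 and -0.62 for Gimap8. Each member is itself part of that mean, which raises its r, so these values cannot be set beside those of genes outside the family. Among 8510 other named genes of at least 5 CPM, the profiles most like the family's were those of Adgre5 and Arl6ip5 (r = 0.97 each) and of Sh3bgrl3, Hsd17b10 and Id3 (r = 0.96 each). These r values describe 9 libraries that share their groups and the low control replicate 2. Adgre5 encodes the adhesion receptor CD97, and Id3 an inhibitor of E proteins. Id3 was at 396 ± 108 CPM in control, 232 ± 14.2 with D-2HG and 351 ± 86.9 under L-2HG (SD, n = 3; edgeR adjusted p = 0.0213 for D-2HG). Adgre5 was at 32.8 ± 8.05, 21.5 ± 2.39 and 32.2 ± 10.8 CPM in the same order.

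Genes that work with GIMAP proteins or act on lymphocyte survival were read as a list. Of 13 tested members of that list, which holds BCL2 family, GSK3 and GABARAP genes, Bcl2l11 and Bcl2 rose with D-2HG and none fell, with a median log2 fold change of -0.12; over all genes tested 11.8% rose and 10.5% fell. Bcl2l11, encoding the death-promoting protein BIM, rose from 50.5 ± 2.05 to 87.1 ± 5.79 CPM (SD, n = 3; edgeR adjusted p = 0.0165). Bcl2, encoding the survival protein that opposes it, rose from 94.8 ± 12.3 to 139.8 ± 7.47 CPM (edgeR adjusted p = 0.0436). With L-2HG, Map1lc3b, an autophagy gene, fell from 118 ± 24.5 to 70.6 ± 19.2 CPM (edgeR adjusted p = 0.0376). It was the only 1 of the 13 to pass, where 8.3% of all genes tested fell and 9.41% rose. No member of the list passed between the enantiomers, where 0.303% of all genes tested did.

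Genes of quiescent and naive T cells, the state in which Gimap transcripts are abundant, were read as a list of 22, all tested. With D-2HG 2 rose and 4 fell, where 11.8% of all genes tested rose and 10.5% fell, and 16 did not pass; the median log2 fold change was -0.16. Il7r, the interleukin-7 receptor, and Satb1, a chromatin organiser, were the genes that rose. Il7r had a log2 fold change of 1.06 (edgeR adjusted p = 0.00312) and Satb1 one of 0.70 (edgeR adjusted p = 0.0206). Dapl1 and Slfn2, a gene that keeps T cells quiescent, fell by 2.04 and 1.12 on the log2 scale (edgeR adjusted p = 0.00111 and 0.00294). With L-2HG, 3 rose and Slfn2 fell, with a median of 0.23, and Il7r rose to 214 ± 13.8 CPM from 64.7 ± 14.9 in control (edgeR adjusted p = 0.000159). Of 14 early activation genes, Tnfrsf9, encoding the costimulatory receptor 4-1BB, and Cd44, an adhesion receptor, fell with both compounds. Irf4, a transcription factor of activated T cells, rose under D-2HG, with a log2 fold change of 0.84 (edgeR adjusted p = 0.00897). Over all genes tested, 10.5% fell and 11.8% rose with D-2HG, and 8.3% fell and 9.41% rose with L-2HG. Tnfrsf9 was at 2123 ± 459 CPM in control, 923 ± 109 under D-2HG and 1022 ± 189.8 under L-2HG (SD, n = 3).

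The interferon-inducible GTPases, GTP-binding families of the cell's own defence, were read as a second family of GTPases. All 14 tested of 17 listed fell with D-2HG, where 10.5% of all genes tested did, with a median log2 fold change of -2.52. With L-2HG 5 fell, where 8.3% of all genes tested did, with a median of -0.57. Between the enantiomers 11 of the 14 were lower with D-2HG, where 0.254% of all genes tested were. Gbp2, a guanylate-binding protein, was at 282 ± 37.7 CPM in control, 15.4 ± 1.86 with D-2HG and 82.7 ± 17.4 under L-2HG (SD, n = 3). The change of Gimap4 with D-2HG, from 426 ± 97.2 to 236 ± 7.03 CPM, was smaller than that of Gbp2, which fell by 4.21 on the log2 scale (95% interval -4.71 to -3.72), and these intervals do not overlap.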

How the data were processed

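Polyadenylated RNA was captured on beads, primed with oligo(dT), amplified by a limited PCR and tagmented, per the labels' protocols. The authors deposited raw counts per gene symbol, which are whole in every column, made with STAR 2.7.3a and featureCounts on mm10, per the submitters' processing notes; strand setting and annotation release are not given in the sources used here. A second table of scaled values was not used. Positions and exon lengths came from GENCODE M21, and promoters from RefSeq (GRCm38.p6); protein sequences were not used here.

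The software was edgeR 4.0.16 for the main test, DESeq2 1.42.0 and limma 3.58.1 for alternatives, all under R 4.3.3. Genes passed filterByExpr (minimum count 10), libraries were scaled by TMM, and a single robust quasi-likelihood model with a mean per group was fitted to all 9 libraries, with 6 residual degrees of freedom. A gene passed at Benjamini-Hochberg adjusted p under 0.05 over 10235 genes. Intervals are 95% and not adjusted for the number of genes. Replicates differed by more than counting error (chi-square per degree of freedom 6.07 to 42.3). The fit was tested on simulated data.

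The members, lists and tests were chosen with earlier results of these data known. The text names all 8 members, tested neighbours, up to 3 called genes per list with the smallest adjusted p, and the 5 genes most alike in profile; some genes that this rule or the marker lists hold are not reported here. Alternatives were other tests, scalings, filters, a replicate block, a satellite covariate, leaving out each library and, chosen after seeing the data, subtraction of the genomic background.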

Additional observations from a re-analysis of the deposited data

How the results depend on the processing

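Of the 18 alternative settings, 11 called Gimap1, 12 Gimap4 and 9 Gimap5 lower with D-2HG (adjusted p from 3.79e-05 to 0.734), and all 18 kept their direction and that of Gimap3, Gimap6, Gimap7 and Gimap8. The count of Gimap genes called with D-2HG was 3, against 5 with only the 2 groups compared, 8 with limma-voom, 0 with the satellite covariate and 1 with the genomic background subtracted, and 0 to 8 with a library left out. A mean count of at least 50 also gave 3, with Gimap8 (adjusted p = 0.0481) in place of Gimap5. With L-2HG the count was 0, against 1 with no count filter, 3 with limma-voom and 0 to 2 with a library left out (2 without control replicate 2 or L-2HG replicate 3). Between the enantiomers it was 0, against 1 with the satellite covariate, 3 with limma-voom and 0 with any library left out. The cause of these shifts was not tested.

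Over all genes, 2278 were called with D-2HG, against 1341 with no count filter, 96 with the satellite covariate, 5615 with limma-voom and 384 to 4257 with a library left out. With L-2HG 1812 were called, against 1195 at a mean count of at least 50, 427 with only the 2 groups compared, 8 with the satellite covariate, 5169 with limma-voom, 681 with the genomic background subtracted and 65 to 4108 with a library left out. Between the enantiomers 31 were called, against 76 with the satellite covariate, 49 with DESeq2, 158 with limma-voom and 10 to 60 with a library left out. DESeq2 size factors kept these counts over all genes and over the Gimap genes within 1.5 times. The balance of directions moved more: of all calls with L-2HG, 53.1% were higher, against 47.2% with DESeq2 size factors, 31.7% with DESeq2 and 31.0% with no count filter, and with D-2HG 52.9%, against 48.5%, 41.0% and 39.6%. The replicate block gave 2314, 2284 and 35 calls over all genes and 3, 0 and 0 among the Gimap genes. Same-numbered libraries had correlations of -0.17 to 0.28, and 3 of 9 libraries correlated best with their own number. These are correlations of deviations from means of 3 libraries, so they cannot decide whether a number marks a shared animal or culture.

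Log2 differences that changed sign belonged to genes that were not called. With the satellite covariate Gimap9 was 0.175 with D-2HG, and with L-2HG Gimap3 was -0.086, Gimap4 0.285, Gimap5 0.014 and Gimap6 0.148. Gimap3 with L-2HG was -0.033 with DESeq2 size factors, -0.274 with no count filter, -0.125 with DESeq2 and -0.067 to 0.053 with a library left out. Gimap9 with L-2HG was -0.229 with no count filter, -0.097 with DESeq2 and -0.20 to 0.29 with a library left out. Between the enantiomers Gimap6 was 0.011 with no count filter, and without L-2HG replicate 3 Gimap1 was 0.028, Gimap5 0.15, Gimap6 0.061 and Gimap8 -0.004; with a library left out these ran from -0.37 to 0.03, -0.42 to 0.15, -0.23 to 0.06 and -0.004 to 0.59. All 24 group levels of Gimap genes moved by less than their SD without TMM. Depth limits L-2HG most, with 698 Gimap counts in replicate 2 against 11055 in control replicate 3. Counts of the fixed lists also moved: the interferon-inducible GTPases had 10 to 14 called with D-2HG, 1 to 9 with L-2HG and 7 to 13 between the enantiomers, the quiescence list 1 to 12, 1 to 9 and 0 to 3, the activation list 0 to 7, 0 to 6 and 0 to 1, the partner list 0 to 6, 0 to 7 and 0 to 1, and the neighbours 0 to 3, 0 to 2 and 0.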
